A study of Mus musculus with 8 samples.

Results

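The islands of Brdt ChIP signal that had been called in spermatocytes and in round spermatids of BD1del mice were compared with each other on chromosomes 1 to 19. An island is a stretch of 200-base windows, which may include short gaps. Its ChIP reads exceed its control reads once the control is scaled to the depth of the ChIP library. The spermatocyte list held 105380 autosomal islands and the round spermatid list 190782, together 296162 of the 426082 islands in the 4 lists of the series. An island was called met if at least 1 of its bases lay in an island of the other stage, and not met otherwise.

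Brdt is the testis member of the BET family of chromatin readers. BET proteins carry a pair of bromodomains, folds that bind acetylated lysines on histone tails, and the first bromodomain of Brdt binds acetylated histone H4. In male germ cells Brdt is known for its roles in the meiotic gene expression programme and in the replacement of histones after meiosis. The BD1del allele removes the first bromodomain, and the protein it encodes keeps the second. Which form of the protein the antibody recovered was not shown.

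The 2 groups were anti-Brdt ChIP from spermatocytes (meiotic) and from round spermatids (post-meiotic) of adult mice of the genotype Brdt BD1del. The fractions were separated on a BSA gradient and pooled, per the labels, and for BD1del the sources used here do not give the strain, the zygosity, the number of mice or the chromatin preparation. The same stages of wild-type C57BL/6 mice, pooled from 10 mice, served as the reference lists, and 4 input libraries entered only as control counts. Each stage of each genotype was 1 ChIP library, so no difference between stages could be tested against a replicate spread. The intervals below are exact (Clopper-Pearson) 95% binomial intervals on the number of islands and cover counting error only. An island list holds no measure of cell type, so the stage labels were not checked against markers.

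The autosomal islands held 5398790 ChIP reads and 8632837 control reads in spermatocytes, and 6443453 and 6850898 in round spermatids. From the deposited fold and counts, the control library exceeded the ChIP library 5.64-fold in spermatocytes and 5.45-fold in round spermatids. The smallest island had 21 ChIP reads in spermatocytes and 17 in round spermatids. Chromosome 1 stood apart from the other autosomes in both lists, and results that rest on it are given with and without it.

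The lists covered similar amounts of the autosomes with islands of different length. Spermatocyte islands covered 149.2 Mb (6.18% of the autosomal span, which ran between the outermost islands of each chromosome) and round spermatid islands 136.6 Mb (5.66%). The median island was 1200 bases long in spermatocytes and 400 bases in round spermatids. Islands of a single window made up 8.78% of the spermatocyte list (9256 islands) and 39.3% of the round spermatid list (75062 islands). Although so frequent, the single-window islands of round spermatids held only 11.0% of the covered bases and 24.2% of the ChIP reads in islands, against 1.24% and 4.19% in spermatocytes. A single-window island had a median of 23 ChIP and 10 control reads in spermatocytes and of 20 and 9 in round spermatids. The lower read minimum of the round spermatid list moves with its excess of short islands, and its part in that excess was not tested.

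**Figure D1:**
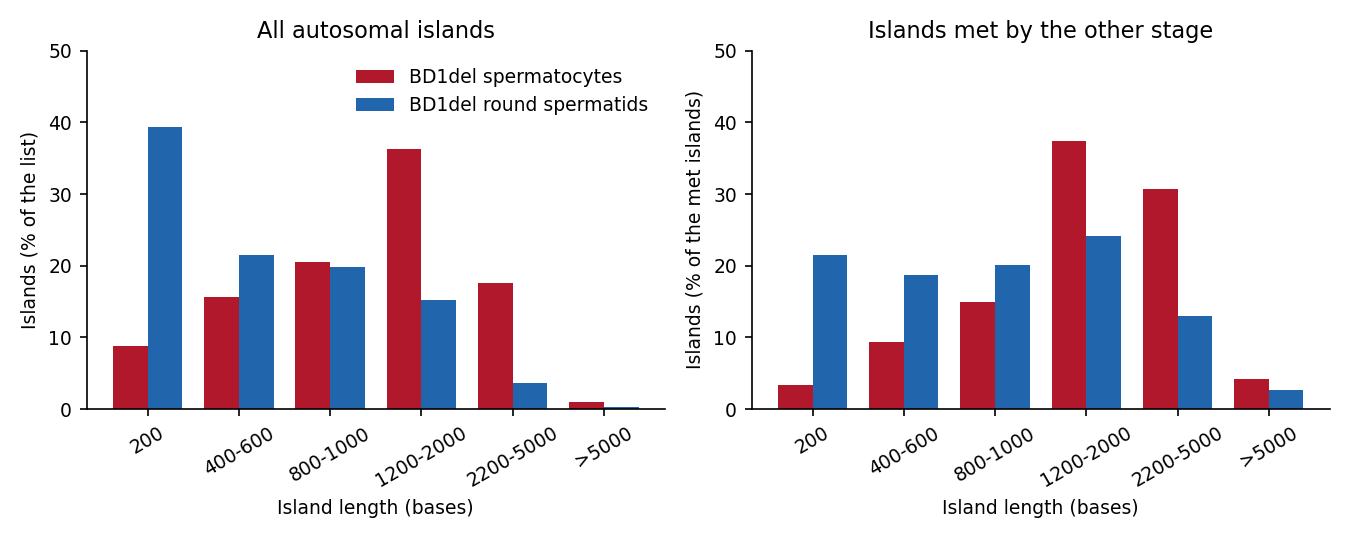
Share of islands by length class (bases, x axis) in the 2 BD1del lists. The left panel shows all autosomal islands, as a percentage of the list, and the right panel the islands met by the other stage, as a percentage of the met islands. In the whole list the 200-base bar is 39.3% in round spermatids against 8.78% in spermatocytes, and single-window islands are fewer among the met islands of both stages.

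Spacing followed the number of islands. Successive islands lay a median of 14200 bases apart in spermatocytes and 8000 in round spermatids, and no gap was under 800 bases in either list. There were 43.6 islands per Mb in spermatocytes and 79.0 in round spermatids. The median island had 33.6 ChIP reads per kb in spermatocytes and 60 in round spermatids, and 50 and 43.3 control reads per kb. The deposited fold over the scaled control had a median of 3.84 in spermatocytes and 7.12 in round spermatids. Within a length class the medians were closer. They were 13.4 and 13.1 for single-window islands, 3.25 and 3.70 for islands of 1200 to 2000 bases and 2.55 and 2.99 for islands of 2200 to 5000 bases, with round spermatids higher in every class but the single windows.

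Most islands of each stage were not met by the other. Of the spermatocyte islands 22797 were met (21.6%, interval 21.4 to 21.9), and of the round spermatid islands 23460 (12.3%, interval 12.1 to 12.4). The lists shared 21.1 Mb, which is 14.2% of the spermatocyte and 15.5% of the round spermatid island bases. For scale, the round spermatid list covered 5.66% of the span and the spermatocyte list 6.18%. A second scale was the share of all stretches of the same length on the same chromosome that touch the other list, which takes island length into account. That share was 15.1% for spermatocyte and 8.60% for round spermatid islands, so the met shares stood 6.51 and 3.69 percentage points above it. The met shares depend on how both lists are filtered, since a filter also lowers what the other list covers. With a fold of at least 5, which left lists covering 0.947% (spermatocytes) and 2.28% (round spermatids) of the span, the met shares were 7.17% and 1.95%. The 10000 islands of lowest p in each list gave 7.53% and 7.54%, where the other list covered 0.359% (round spermatids) and 0.559% (spermatocytes) of the span, and their shared bases rose to 17.6% and 27.5% of each list. With only islands longer than 1 window the met shares were 18.2% and 15.4%. Asking for an overlap of at least 50% of the island gave 9.94% and 9.90%. The span includes stretches where no reads can be placed, which lowers the share of same-length stretches. It also includes stretches inside longer islands of the same list, where a short island cannot lie.

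Chromosome 1 accounted for much of the shared sequence. It held 11.2% of the spermatocyte and 9.85% of the round spermatid islands but 41.7% of the shared bases. On chromosome 1, 40.9% of spermatocyte islands (interval 40.01 to 41.8) and 26.7% of round spermatid islands (26.1 to 27.4) were met. The same-length stretches there gave 25.7% and 17.0%. Without it the met shares were 19.2% and 10.7%, against 13.8% and 7.68% of same-length stretches, and the shared bases were 9.75% and 10.7% of each list. The islands of chromosome 1 were also longer and closer together, with 60.8 per Mb in spermatocytes and 96.8 in round spermatids. Their median ChIP reads per kb, 32 and 44.7, were the lowest of the autosomes. The lists covered 11.8% (spermatocytes) and 10.9% (round spermatids) of chromosome 1, and their median lengths there were 1600 and 800 bases.

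The met share rose with island length in both lists, as the share of same-length stretches did. On the autosomes other than 1, 8.01% of single-window spermatocyte islands were met, against 5.21% of windows. For islands of 2200 to 5000 bases the share was 33.0% against 23.9%, and for islands over 5000 bases 69.2% against 46.5%. In round spermatids the same 3 classes had met shares of 6.61%, 31.7% and 77.9%, against 5.69%, 16.1% and 33.6%. Single-window round spermatid islands, the most frequent class of that list, were therefore met only 0.915 percentage points more often than any window. On chromosome 1 they fell below that level, with 7.98% met (interval 7.26 to 8.74) against 11.8% of windows. The windows counted include those inside longer round spermatid islands, where no single-window island can lie. On chromosome 1, islands of 2200 to 5000 bases held 42.0% of the shared bases and islands over 5000 bases 30.7%. Neither the shortfall there nor the small excess elsewhere can therefore be read as avoidance or preference.

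**Figure D2:**
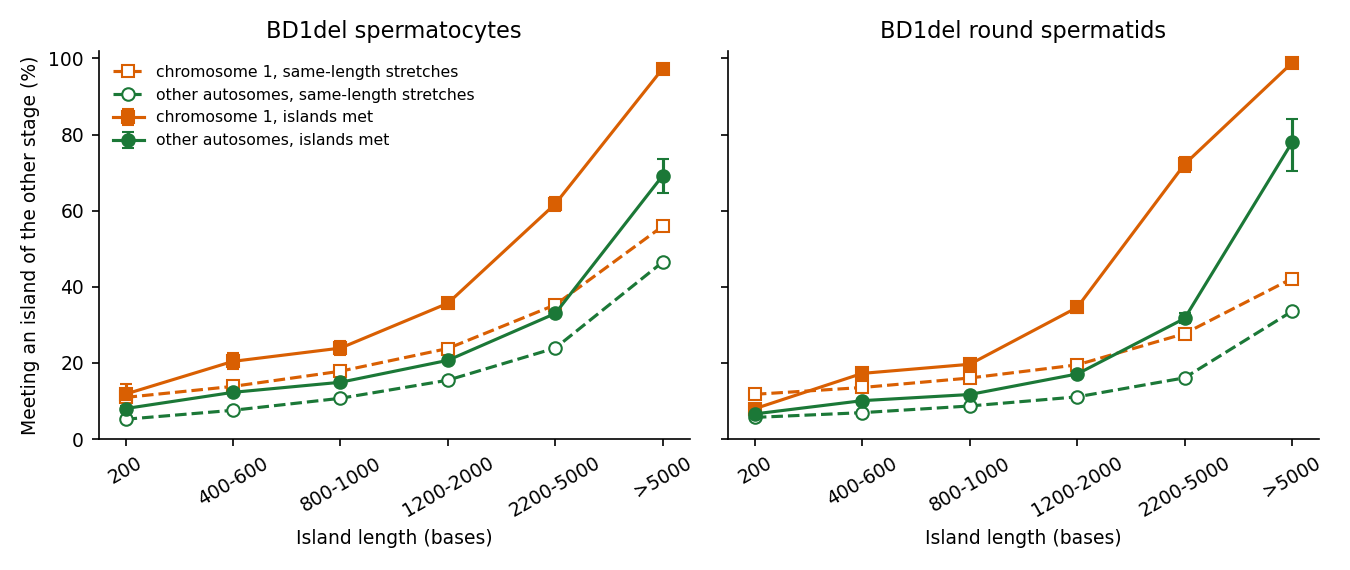
Share of islands that meet an island of the other stage (y axis, %) by island length (bases), for chromosome 1 and for the other autosomes. Filled points with 95% intervals are the islands, and open points on dashed lines are all stretches of the same length. The islands rise above the stretches most in the classes over 2200 bases, and on chromosome 1 the single-window round spermatid islands (7.98%) lie below their stretches (11.8%). The stretches include those inside longer islands of the same list, where no single-window island can lie.

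Long islands clustered on chromosome 1. Of the islands over 5000 bases, 671 of 1090 in spermatocytes and 505 of 659 in round spermatids lay there, and 97.3% and 98.8% of those were met. The same-length stretches of chromosome 1 gave 55.9% and 42.2%. Within chromosome 1 the met share varied with the covered share. In blocks of 10 Mb it was highest between 110 and 120 Mb, with 56.7% of spermatocyte and 45.4% of round spermatid islands met, and the lists covered 17.3% and 15.2% of that block. Between 70 and 80 Mb, 30.1% and 18.6% were met, and 8.48% and 8.43% of the block was covered.

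Met islands were longer, and lower in fold, than islands that were not met. In spermatocytes the median length was 1600 bases in met and 1200 in other islands, the single-window share 3.37% and 10.3%, and the median fold 3.18 and 4.09. In round spermatids the median length was 1000 and 400 bases, the single-window share 21.4% and 41.9%, and the median fold 4.65 and 7.58. ChIP reads per kb were lower in met islands of all lengths pooled, 30 against 35 in spermatocytes and 41.4 against 65.0 in round spermatids, but within each of the 6 length classes the islands densest in ChIP reads were met more often than the least dense. Control reads per kb were higher, 53.3 against 49.4 and 48.0 against 42.5. Spacing differed little, with median gaps of 13000 and 14600 bases in spermatocytes and of 7600 and 8200 in round spermatids.

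Among single-window islands, those of highest fold were met about as often as any window. On the autosomes other than 1, single-window spermatocyte islands with a fold of 3 to 5 were met in 45.0% of 220 cases (interval 38.3 to 51.8). The share was 9.55% at a fold of 5 to 10, 6.23% at 10 to 20 and 5.28% over 20 (interval 4.40 to 6.28), where 5.22% of windows met the other list. Single-window round spermatid islands went from 16.2% at a fold of 3 to 5 to 5.65% over 20 (interval 5.32 to 6.00), against 5.69% of windows. The ChIP counts of single windows varied little, with quartiles of 22 and 26 reads in spermatocytes and 18 and 22 in round spermatids. Their fold therefore mostly follows the control count, and the ranking by control reads below shows largely the same relation. Islands of 400 to 600 bases with a fold over 20 stayed above their stretches in spermatocytes, with 12.6% met (interval 9.92 to 15.8) against 7.05%. In round spermatids the same class gave 7.68% (interval 6.52 to 8.97) against 6.68%. In islands of 2200 to 5000 bases the fold made less difference in spermatocytes, with 33.7% met at a fold under 2 and 31.6% at 5 to 10. In round spermatids that class went from 40.5% to 26.9%. The fall with fold did not extend to spermatocyte islands over 5000 bases. Their met shares were 68.2% at a fold under 2, 66.2% at 2 to 3 and 83.0% of 47 islands at 3 to 5. In round spermatids that class gave 77.8%, 89.1% and 62.5% of 32 islands.

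**Figure D3:**
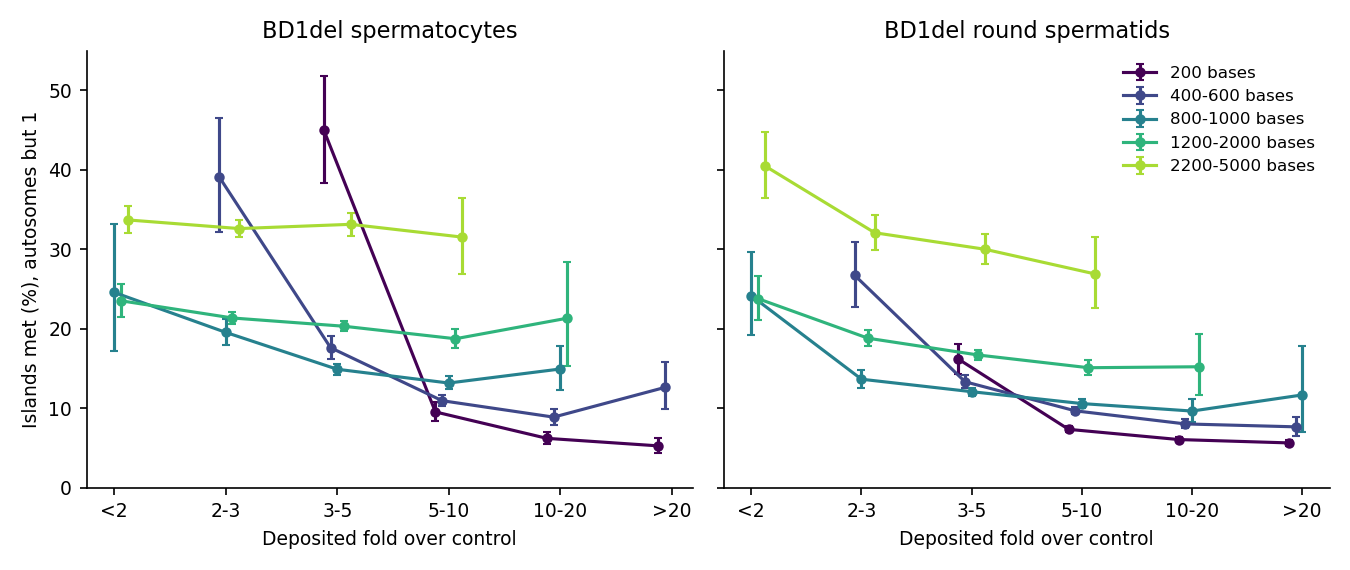
Share of islands met by the other stage (y axis, %) by deposited fold over control (x axis), in 5 length classes, on the autosomes without chromosome 1; bars are 95% intervals, and points with fewer than 100 islands are left out. Among single-window islands the share is highest at a fold of 3 to 5 (45.0% in spermatocytes, 16.2% in round spermatids) and lowest over 20.

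In the short classes the met share differed more across a ranking by control reads than across a ranking by ChIP reads. Ranked by control reads per kb and cut into 5 equal groups, single-window spermatocyte islands outside chromosome 1 were met in 4.79% of the lowest and 16.5% of the highest group. Ranked by ChIP reads per kb the same islands gave 7.06% and 11.7%. In round spermatids the single-window shares were 5.50% and 9.28% by control reads and 6.15% and 7.70% by ChIP reads. For round spermatid islands of 2200 to 5000 bases they were 25.3% and 48.4% by control reads, and 24.4% and 41.0% by ChIP reads. In spermatocyte islands of that length the order was not the same, with 31.1% and 38.7% by control reads and 30.3% and 39.5% by ChIP reads. The rankings covered unlike ranges in single windows outside chromosome 1. From lowest to highest group, spermatocyte medians per kb ran from 20 to 95 control reads and from 105 to 145 ChIP reads. In round spermatids they ran from 15 to 80 and from 85 to 130. The smaller change by ChIP reads is therefore no measure of which count matters more. Whether the higher control density accounts for the overlap was not tested.

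Islands with very many ChIP reads per kb formed a small class that was mostly shared. These density classes were chosen after the values had been seen. Of 84 spermatocyte islands with over 300 ChIP reads per kb, 83 were met (98.8%, interval 93.5 to 99.97), and of 98 such round spermatid islands 90 were met (91.8%, interval 84.5 to 96.4). The class between 200 and 300 reads per kb was met in 60.6% of 94 spermatocyte and 28.2% of 390 round spermatid islands. The lowest met share was in the class of 80 to 120 reads per kb, 10.3% and 7.04%, where the median island was a single window. The densest class also met the wild-type lists most: 69.0% of its spermatocyte islands shared a base with a wild-type spermatocyte island and 81.0% with a wild-type round spermatid island. Its control density was high too, with medians of 612 control reads per kb in spermatocytes and 350 in round spermatids.

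**Figure D4:**
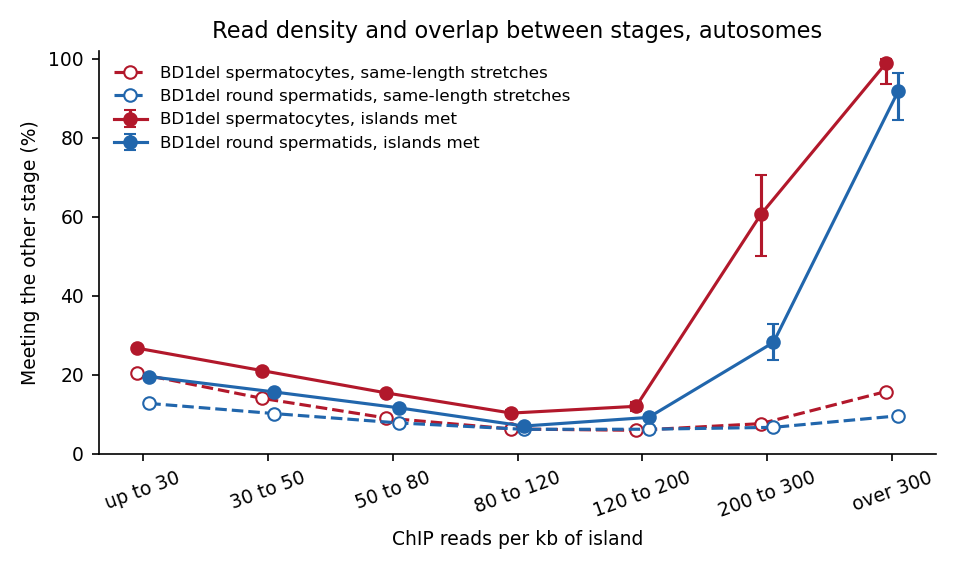
Share of islands met by the other stage (y axis, %) by ChIP reads per kb of island (x axis), autosomes, with 95% intervals; open points on dashed lines are all stretches of the same length. The share dips to 10.3% (spermatocytes) and 7.04% (round spermatids) at 80 to 120 reads per kb and reaches 98.8% and 91.8% above 300.

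One island pair led this class by its fold. At chr17:4626001-4626800 (mm9) the same 800 bases had been called in both stages, with 1426 ChIP reads in spermatocytes and 1576 in round spermatids. The control counts were 88 and 377, so the deposited folds were 91.4 and 22.8. At chr1:12634801-12635000, a shared single window, the ChIP counts were again alike, 249 and 261, and the control counts were 23 and 89. At chr9:19379801-19380200 the counts were 194 and 186 ChIP reads with 22 and 46 control reads, and at chr6:10136201-10136600 they were 137 and 186 with 19 and 44. In each of these 4 places the ChIP counts of the stages were within 1.36-fold, and the round spermatid control was 2.09 to 4.28 times that of spermatocytes.

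The same held for most of the dense pairs of high fold. There were 89 pairs in which each island was the only one the other met and both had at least 200 ChIP reads per kb. In the 27 pairs with a round spermatid fold of 10 or more, the median ChIP density was 430 reads per kb in spermatocytes and 472.5 in round spermatids. The median ratio of round spermatid to spermatocyte density was 1.09 for ChIP reads and 2.04 for control reads, and the control ratio was above 1 in 24 of these 27 pairs. In the 62 pairs with a round spermatid fold under 10 the control density was higher in round spermatids in 27, with a median ratio of 0.953. In those 62 pairs the median ratio for ChIP density was 0.951, so the larger difference in control than in ChIP density belonged to the 27 pairs of higher fold. The minimum of 200 ChIP reads per kb in both islands limits how far the ChIP densities of a pair can differ, and the origin of the control difference was not tested.

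The pairs with the most reads were places where the control was deep as well. At chr9:2999801-3039800 the same 40 kb was called in both lists, with 456487 ChIP and 309999 control reads in spermatocytes (fold 8.30) and 301891 and 295799 in round spermatids (fold 5.56). At 98.5 Mb on chromosome 2, a spermatocyte island of 8 kb held 78847 ChIP and 73017 control reads, and the round spermatid island of 6 kb inside it 71648 and 71863. The longest met spermatocyte island, chr8:19917201-20006200 with 89 kb, had 6448 ChIP reads but 31455 control reads and a fold of 1.16. It met 3 round spermatid islands.

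Round spermatid islands of highest fold that were met lay in 2 places. At chr7:150720001-150720400 the same 400 bases had 115 ChIP and 11 control reads in round spermatids (fold 56.9) and 45 and 16 in spermatocytes (fold 15.9). At chr15:57938201-57938600 a round spermatid island had 449 ChIP and 48 control reads (fold 50.9), and another at chr15:57937001-57937400 had 295 and 43 (fold 37.4). Both lay inside a single spermatocyte island of 4800 bases, chr15:57937001-57941800, with 520 ChIP and 288 control reads and a fold of 10.2. None of the 5 met round spermatid islands of highest fold shared a base with a wild-type island of either stage. Among all met round spermatid islands 24.4% met the wild-type spermatocyte list and 28.5% the wild-type round spermatid list. Of the 5 met spermatocyte islands of highest fold, 2 met the wild-type spermatocyte list and 3 the wild-type round spermatid list. Among all met spermatocyte islands these shares were 25.01% and 30.1%. With 5 islands for each stage, those of round spermatids in only 2 places, the counts cannot show a difference between stages.

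The islands of highest fold that were not met had fewer reads. In spermatocytes the leading one was chr17:7138001-7140800, with 90 ChIP and 13 control reads over 2800 bases and a fold of 39.0. It lay 5400 bases from the nearest round spermatid island and met both wild-type lists. In round spermatids the leading one was chr2:171688601-171689200, with 100 ChIP and 13 control reads, a fold of 41.9 and a distance of 3400 bases. The next, chr7:150715201-150715600 with 84 ChIP and 11 control reads, was 4400 bases from the met island of highest fold on the same chromosome. The longest spermatocyte island that was not met, chr11:3019201-3100000 with 80.8 kb, had 12569 ChIP and 66997 control reads and a fold of 1.06.

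Overlapping islands seldom had the same borders. Among 21328 pairs in which each island was the only one the other met, 886 (4.15%) had the same start and end. The round spermatid island lay inside the spermatocyte island in 54.1% of pairs and the reverse held in 17.9%, both counts including identical pairs. The spermatocyte island was the longer in 68.7%. The shared stretch had a median of 400 bases and made up a median of 30.8% of the union of the pair, 52.9% on chromosome 1 and 26.1% elsewhere. Across pairs, which share libraries and neighbourhoods, Spearman's rho between stages was 0.499 for control reads per kb, 0.232 for length, 0.231 for fold and 0.105 for ChIP reads per kb. Without chromosome 1 the rho for length was 0.090, and on chromosome 1 it was 0.609.

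An island usually met 1 island of the other stage. There were 926 spermatocyte islands that met 2 or more round spermatid islands, at most 4, and 297 round spermatid islands that met 2 or more spermatocyte islands, at most 3. The 3 round spermatid islands that led this order were all on chromosome 1. One of them, chr1:152132801-152150000, was 17.2 kb long and shared 75.6% of its bases with 3 spermatocyte islands.

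Islands that were not met lay no nearer to the other stage than other windows did. The median distance to the nearest island of the other stage was 3800 bases for spermatocyte and 7200 for round spermatid islands. Within 1000 bases lay 18.6% of the spermatocyte islands (interval 18.3 to 18.8), against 18.8% of all windows outside the round spermatid islands. For round spermatids the shares were 10.4% (interval 10.2 to 10.5) and 10.7%. The farthest round spermatid island, chr14:3004401-3006400 at the start of chromosome 14, was 994.6 kb from any spermatocyte island, and the farthest spermatocyte island, chr7:33626601-33628400, was 133.6 kb from a round spermatid island.

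Among the 18 other autosomes the met share of spermatocyte islands ran from 15.8% on chromosome 8 to 24.2% on chromosomes 2 and 19. The met share of round spermatid islands ran from 8.82% on chromosome 8 to 14.1% on chromosomes 2 and 19. The ratio of the met share to that of same-length stretches was over 1 on every autosome, from 1.21 on chromosome 11 to 1.59 on chromosomes 1 and 19 for spermatocytes and from 1.21 to 1.59 for round spermatids, again lowest on 11 and highest on 19. The covered share of a chromosome went together in the stages, with a Spearman's rho of 0.937 over 19 autosomes and 0.926 over the 18 without chromosome 1. Chromosomes differ in gene content and base composition, and the controls were counted on the same windows, so this rho is given as a description.

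Position along the chromosome made a small difference. With each autosome other than 1 divided into 10 equal parts, 18.3% to 19.6% of spermatocyte islands were met in the first 9 parts. In the last part, the end far from the centromere, 22.7% were met (interval 21.9 to 23.5). In round spermatids the first 9 parts gave 10.2% to 10.9% and the last 12.2% (interval 11.8 to 12.7). The last part also had the highest covered share, 6.15% and 6.00%.

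Coverage in bins of 1 Mb was only loosely shared. Over 2419 bins the covered shares of the stages had a Spearman's rho of 0.559, and of 0.446 over the 2225 bins off chromosome 1. Round spermatids had more islands in 99.6% of bins, while spermatocyte islands covered more bases in 65.6%. In 83.5% of bins the covered shares were within 2 percentage points. The bin with the largest excess in spermatocytes was chromosome 1 from 85 to 86 Mb, where 21.0% was covered against 7.72% in round spermatids; it contains a 50.2-kb spermatocyte island with 2473 ChIP and 13138 control reads. The largest excess in round spermatids was chromosome 14 from 7 to 8 Mb, with 13.3% against 3.40%. Next came 4 to 5 Mb on the same chromosome, with 12.2% against 3.26%. In these 2 bins of chromosome 14 the wild-type lists covered 66.2% and 78.3% in spermatocytes and 38.04% and 51.2% in round spermatids.

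Islands met by the other BD1del stage were also more often found in wild type, which was no part of the split. For scale, the wild-type spermatocyte list covered 3.46% of the autosomal span and the wild-type round spermatid list 4.83%. Of all BD1del spermatocyte islands 8.96% shared a base with a wild-type spermatocyte island and 12.7% with a wild-type round spermatid island. Among those met by BD1del round spermatids the shares were 25.01% and 30.1%, and among those not met 4.53% and 7.91%. Of all BD1del round spermatid islands 6.61% met the wild-type spermatocyte list and 9.79% the wild-type round spermatid list. These shares were 24.4% and 28.5% in met islands and 4.11% and 7.18% in the others. Without chromosome 1 the met spermatocyte islands gave 18.2% and 23.2% and the others 3.94% and 7.33%. The met round spermatid islands gave 17.7% and 21.4% and the others 3.59% and 6.60%.

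Length did not remove this difference. Outside chromosome 1, met single-window spermatocyte islands shared a base with wild-type spermatocyte islands in 18.4% of cases, and those not met in 1.78%. For single-window round spermatid islands and the wild-type round spermatid list the shares were 8.69% and 3.28%. On these autosomes the wild-type lists covered 2.87% (spermatocytes) and 4.29% (round spermatids) of the span. In both comparisons the met single windows stood above the covered share and the others below it. For longer islands no same-length share was computed against the wild-type lists. The met islands had the higher share in every length class and both wild-type lists with 1 exception. Of round spermatid islands over 5000 bases, 62.5% of the 120 met and 70.6% of the 34 others met the wild-type spermatocyte list, with overlapping intervals. Even so, 64.3% of met spermatocyte islands shared no base with either wild-type list, and 89.7% of those not met. The lists of the genotypes differ in the tags that were used, per their labels, so genotype and read set cannot be told apart.

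**Figure D5:**
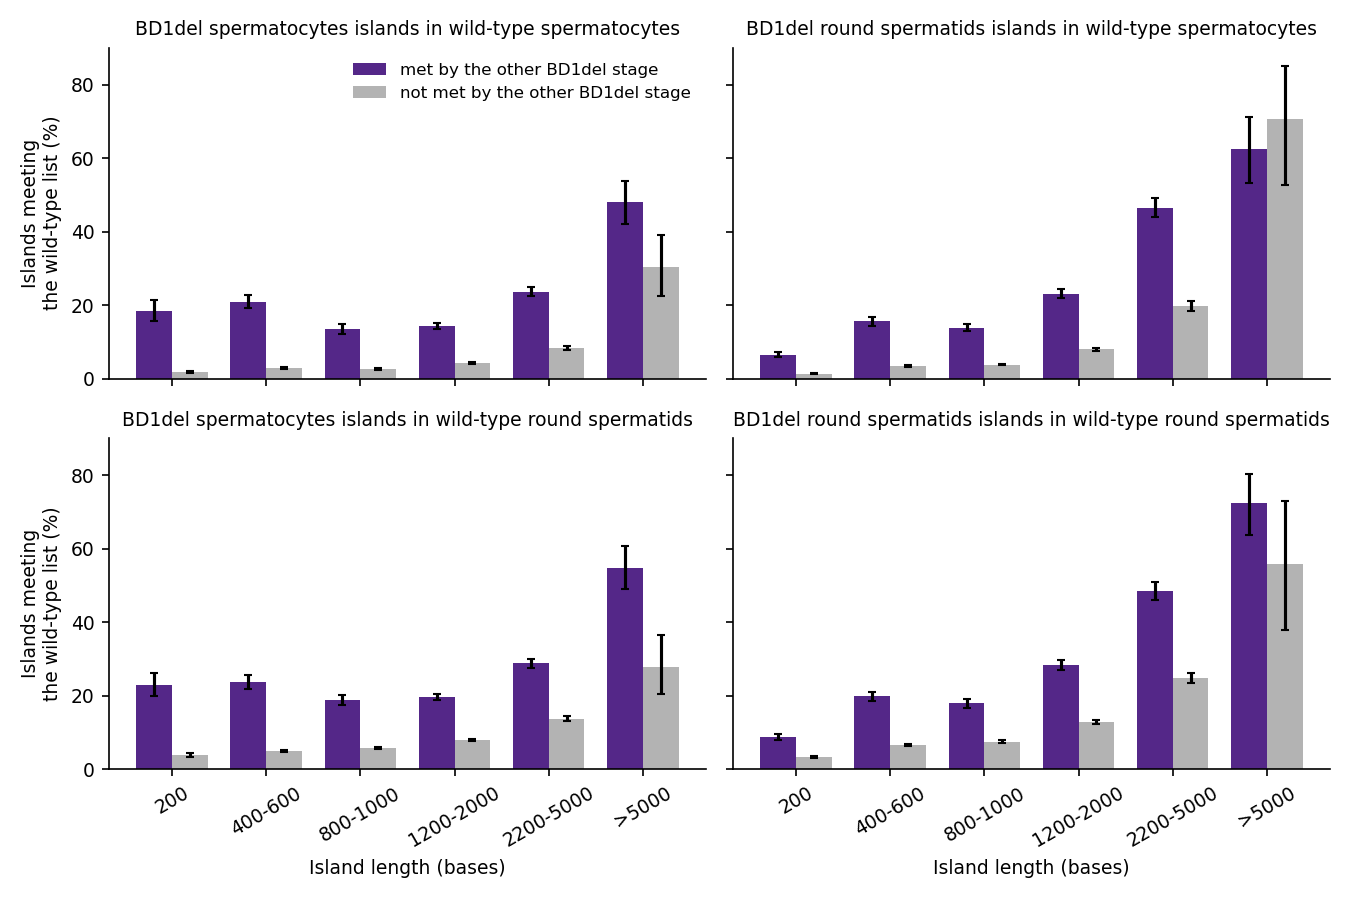
Share of BD1del islands (y axis, %) that share a base with the wild-type list named above each panel, by island length (bases), on the autosomes without chromosome 1; bars are 95% intervals. Islands met by the other BD1del stage (purple) stand above the others (grey) in every class except round spermatid islands over 5000 bases against wild-type spermatocytes (62.5% and 70.6%).

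In wild type a larger share of islands was met across stages. Of 29531 autosomal wild-type spermatocyte islands 58.1% were met by a wild-type round spermatid island, and of 67996 round spermatid islands 26.6% were met by a spermatocyte island. The shares of same-length stretches were 13.1% and 5.93%. The gap between genotypes was widest for single windows of spermatocytes, of which 58.6% were met in wild type (852 islands, 5.02% of windows) and 8.30% in BD1del (9256 islands, 5.64% of windows). These classes were unlike in other ways. Their median fold was 2.77 in wild type and 13.4 in BD1del, with 105 and 50 control reads per kb. In BD1del, single windows with a fold of 3 to 5 were met in 45.8% of 249 cases and those over 20 in 5.37%. For islands over 5000 bases the met shares were 79.4% in wild-type and 86.5% in BD1del spermatocytes, against 28.0% and 52.3% of same-length stretches. Without chromosome 1 the met shares were 72.2% and 69.2%, against 22.9% and 46.5% of stretches. The long islands of wild type thus stood further above their stretches. Depth differed as well. The control library exceeded the ChIP library 1.79-fold in wild-type spermatocytes and 3.79-fold in wild-type round spermatids, against 5.64-fold and 5.45-fold in BD1del. With 1 library for each stage and genotype, the difference between genotypes was not tested.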

How the data were processed

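Per the labels, anti-Brdt ChIP and input DNA were made into paired-end libraries (inserts near 150 bp). The submitters' processing notes name SICER and mm9 for the island calls. The labels of the lists give a window of 200 and a gap of 600 bases. For the aligner, the read filters, the SICER version and the input used as each control: not given in the sources used here.

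The ChIP and control counts deposited by the authors are whole reads per island. The deposited p-value and FDR (all under 0.01) compare the ChIP count with the scaled control. Fold, as deposited by the authors, divides the ChIP count by the scaled control count as a ratio, and islands without control reads (76 and 886) were given 0.25 reads. Both come from the authors and served only to rank, class or filter islands.

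Coordinates were made 1-based. Overlaps, distances, length classes and shares were computed in Python 3.11.15 with pandas 2.3.3 and NumPy 2.4.6, and the exact intervals with SciPy 1.17.1. Overlap counting was checked against a plain count on 5 simulated pairs of lists. Same-length stretches were all stretches on the 200-base grid of the chromosome's span. Named islands followed a rule: in each list the 5 met and 5 not-met islands that led by fold (10 or more control reads), the 3 longest, the 3 with most ChIP reads, the 3 that met most islands and the 3 farthest. Named pairs led by the product of their folds, named bins by the difference in covered share and named chromosomes by met share. Only the leading ones are given. Members, classes and lists were chosen with earlier results of these data known. Gene annotation and sequence of mm9 were not used here, so islands are named by position.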

Additional observations from a re-analysis of the deposited data

How the results depend on the processing

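No paired analysis was possible because each group had 1 library and no test was made. The limits here are the single library per stage, the unknown control and duplicate handling, and an island list that holds nothing about windows under the call limit. The values below are, in order, the met share of spermatocyte islands, the met share of round spermatid islands, and the shared bases as a percentage of spermatocyte and of round spermatid island bases; the reported values are 21.6, 12.3, 14.2 and 15.5%.
They became 15.7, 7.40, 13.4 and 12.1% at an FDR of at most 1e-10, 20.3, 11.0, 13.1 and 13.2% at a fold of at least 2, and 7.17, 1.95, 4.37 and 1.82% at a fold of at least 5. The fold of at least 5 gave the lowest values of all settings; it keeps 35115 and 129402 islands that cover 0.947% and 2.28% of the span.
The 10000 islands of lowest p in each list gave 7.53, 7.54, 17.6 and 27.5%. At least 10 control reads gave 19.9, 14.2, 13.9 and 16.2%, islands longer than 1 window 18.2, 15.4, 13.6 and 16.5%, and removal of the 1% richest in control reads per kb 20.7, 11.8, 13.4 and 14.5%.
Merging islands within 1000 bases gave 22.0, 12.6, 14.8 and 15.5%. Leaving out the 9 bins of 1 Mb covered to at least 20% gave 21.4, 12.1, 13.7 and 14.9%, and adding X and Y gave 24.2, 13.9, 18.1 and 19.7%.
The met shares were 9.94 and 9.90% when at least 50% of the island had to be shared and 33.7 and 19.7% when islands within 1000 bases counted.
With each autosome left out in turn, the lowest values were 19.2, 10.7, 9.75 and 10.7%, all without chromosome 1, and the highest 21.9, 12.5, 14.5 and 15.9%. The value without chromosome 1 was also added as a setting of its own after the data had been seen. The cause of these shifts was not tested.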
